A study of Mus musculus with 2 samples.

Results

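The receptors Mertk, Axl, Cd36, Mrc1, Msr1, Marco, Stab1 and Cd163 and the bridging ligands Gas6 and Pros1 were followed across the cells of a healing skull defect. These 10 genes act in efferocytosis, the uptake of dying cells, and in the scavenging of modified proteins, lipids and haemoglobin. They were chosen by symbol from the 32285 genes listed in the count matrices, and 10 of 10 were found. The study compared mice given gambogic amide (GA), a small-molecule agonist of the nerve growth factor receptor TrkA, with mice given vehicle. Male mice aged 2 months, C57BL/6 by the sample labels and C57BL/6J by the study's methods, received a circular frontal bone defect. On day 7 cells were taken from a piece of bone about 3 mm across with the defect at its centre. Both groups received injections of 100 µL holding 10% DMSO from 24 h before injury, with GA or with no GA. The sample labels give GA at 1.2 mg/kg, and the study's methods give another dose. Each group is 1 library of cells pooled from 5 mice, with no transgene or deletion in either.

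An apoptotic cell shows phosphatidylserine on its surface, and Gas6 or protein S (Pros1) bind that lipid. They link it to receptor tyrosine kinases on the phagocyte, Gas6 to Mertk and Axl and protein S to Mertk. Cd36, Msr1 and Marco take up oxidised lipoproteins and other polyanionic ligands, Stab1 binds phosphatidylserine and matrix fragments, Mrc1 is the mannose receptor CD206 and Cd163 binds haemoglobin bound to haptoglobin. In healing bone, monocytes that enter the wound lose Ly6c2 as they become macrophages and gain many of these receptors.

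The GA and control matrices held 9322 and 8718 barcodes and 182949385 and 214993030 UMIs (unique molecular identifiers, which count RNA molecules rather than reads). After filters, 8376 GA and 7555 control cells remained, with medians of 10929.5 and 16336 UMIs per cell. Of the kept barcodes, 19 occurred in both libraries. Clusters were named from fixed marker genes, and every gene of the lists used here was left out of the clustering. Neutrophil-like cells made up 52.7% of GA and 27.6% of control cells, macrophage-like or monocyte-like cells 15.3% and 23.6%, and mesenchymal-like cells 9.44% and 22.4%. Levels are given as CPM, UMIs of the gene per 1000000 UMIs of the same cells. With 1 library per group no test across samples exists, so each ratio compares 2 libraries and not 2 treatments, and its exact 95% interval covers counting error only. A size of 2-fold or more (1 on the log2 scale) is the fixed rule used for counts.

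The promoters of 3 members that behaved differently in the macrophages are shown, each as the 250 bases before the RefSeq start of the gene on GRCm38.p6, written along the coding strand. They were chosen after the values were seen, as Mrc1 and Cd163 had a higher CPM in the GA library and Axl a lower one. Capitals mark GAGGAA or its reverse complement TTCCTC, the core letters of the sites bound by the macrophage factor PU.1 (Spi1). Mrc1 lies at chr2:14229164-14229413 on the plus strand, Axl at chr7:25788734-25788983 on the minus strand and Cd163 at chr6:124304401-124304650 on the plus strand.
Mrc1: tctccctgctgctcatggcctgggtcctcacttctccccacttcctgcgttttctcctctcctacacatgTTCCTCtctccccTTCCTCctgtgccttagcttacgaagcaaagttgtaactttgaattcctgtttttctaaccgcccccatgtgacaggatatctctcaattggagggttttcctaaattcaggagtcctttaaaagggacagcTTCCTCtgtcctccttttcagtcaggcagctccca
Axl: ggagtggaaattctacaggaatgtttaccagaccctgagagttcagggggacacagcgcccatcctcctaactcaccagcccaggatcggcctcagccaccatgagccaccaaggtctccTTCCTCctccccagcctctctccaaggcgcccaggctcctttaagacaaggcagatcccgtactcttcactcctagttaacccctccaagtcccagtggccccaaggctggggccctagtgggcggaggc
Cd163: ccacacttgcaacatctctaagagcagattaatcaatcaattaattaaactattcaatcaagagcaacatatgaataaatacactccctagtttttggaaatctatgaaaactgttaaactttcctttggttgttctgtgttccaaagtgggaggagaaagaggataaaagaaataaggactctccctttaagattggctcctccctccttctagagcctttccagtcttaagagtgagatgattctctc

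Mrc1 held 3 matches, starting 180, 167 and 35 bases before the start, Axl held 1 at 130 bases and Cd163 held 0. Of the 9 members with an entry in the promoter table, 4 held a match on either strand, against 23.3% of the 32851 promoters of that length. Marco and Stab1 were the other two, with 1 match each at 146 and 30 bases before the start. Msr1 had no entry. The letters TGANTCA, bound by AP-1 factors, were in 0 of 9 members and 6.75% of all promoters, and AGGTCA, the half-site of lipid-sensing nuclear receptors, was in 1 of 9 (Cd36) and 14.0% of all promoters. These matches describe letters in a window and no binding was measured.

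The scavenger receptors were concentrated in the macrophage-like or monocyte-like class, which held 1284 GA and 1783 control cells with medians of 21133 and 21165 UMIs. Of all UMIs of each gene in kept cells, this class held 98.8% for Marco, 95.4% for Cd36, 94.2% for Msr1, 90.2% for Stab1, 87.9% for Mrc1, 68.3% for Mertk and 59.7% for Cd163. Axl and both ligands had most of their UMIs elsewhere. Mesenchymal-like cells held 80.0% of the Axl UMIs, 72.5% of those of Pros1 and 63.8% of those of Gas6, and the macrophage class 9.6%, 19.0% and 33.6%. The level of Gas6 was nonetheless alike in these classes, at 139 CPM in mesenchymal-like and 145 CPM in macrophage-class cells of both libraries together. B-like cells, which should lack Mrc1, gave a measure of free RNA. In cells thinned to 2000 UMIs, Mrc1 was found in 37.7% of GA and 39.8% of control macrophage-class cells, and in 0.686% and 0.174% of B-like cells, whose medians were 6472 and 5913 UMIs before thinning. Without thinning the macrophage shares were 54.9% and 68.2%.

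**Figure D1:**
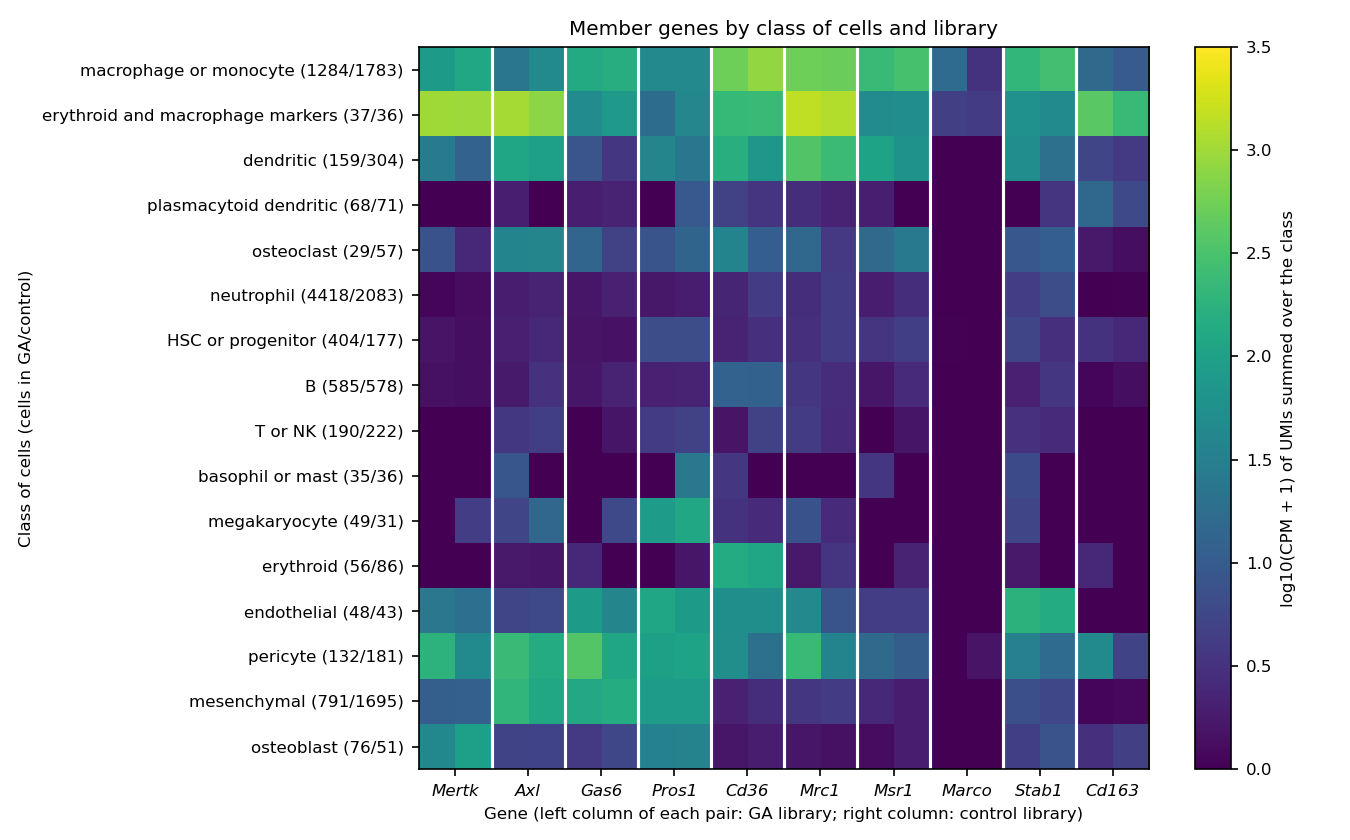
Levels of the 10 members in 16 classes of cells as log10(CPM + 1) of the summed UMIs, with the GA library in the left and the control library in the right column of each gene and the numbers of cells in brackets. The upper rows hold the highest levels of Cd36, Mrc1, Msr1, Stab1 and Cd163. Axl, Gas6 and Pros1 are also high in the mesenchymal row, where Axl read 201 CPM in GA and 126 CPM in control. Some other lower rows are not empty, with Stab1 at 153 CPM in the endothelial row and Gas6 at 171 CPM in the pericyte row, both libraries together.

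Over all kept cells together, 8 of 10 members had a lower CPM in GA with an interval below 0. The share of all genes with such an interval was not computed. The members' median log2 ratio of GA over control was -0.54, against -0.10 for all genes with at least 20 UMIs. Past 2-fold in either direction were 1 of 10 members, Marco, and 14.6% of all genes. Gas6 read 63.7 CPM in GA and 110 CPM in control, Pros1 35.7 and 56.7 CPM, Cd36 108 and 192 CPM and Mertk 24.1 and 38 CPM. Marco (3.08 and 0.515 CPM) and Cd163 (5 and 3.18 CPM) were the members with a higher level in GA. The GA library held a smaller share of macrophage-like and mesenchymal-like cells, the main sources of these genes. A log2 ratio was also computed with each class at its control level and its GA share of UMIs. It was -0.65 for Gas6, -0.70 for Pros1, -0.18 for Cd36 and -0.23 for Mertk. The observed ratios were -0.79, -0.67, -0.83 and -0.66. The part of the shares in the result was not tested. A sum over all cells cannot tell fewer cells of a type from less RNA per cell, so the values within classes follow.

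Within the macrophage-like or monocyte-like class, the members did not move as a group. The median log2 ratio was -0.26, against 0.10 over all genes with at least 20 UMIs. Of the 10 members, 3 had an interval above 0, 6 below 0 and 1 covering 0, and the shares over all genes were not computed. Past 2-fold in either direction were 2 of 10, Marco higher and Axl lower, and 9.37% of all genes of the class. The median moved to 0.082 without batch correction and to 0.012 when the listed genes were allowed into the clustering, so the sign of the median depended on how the class was drawn.

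The class mixed cells high and low in Ly6c2 in different proportions in the 2 libraries. No stage of maturation was measured. Its 18 clusters were split, after their values were seen, by whether Ly6c2, the surface marker of inflammatory monocytes, was above its level in the class as a whole. The 5 clusters high in Ly6c2 held 514 of 1284 GA cells (40.0%) and 364 of 1783 control cells (20.4%). In them Ly6c2 read 1670 and 1667 CPM in GA and control and the complement gene C1qa 9.11 and 62.5 CPM. In the 13 clusters low in Ly6c2, C1qa read 2689 and 2508 CPM and Ly6c2 40.7 and 10.5 CPM. In both libraries each member had a lower level in the high than in the low clusters, with the smallest gaps for Msr1 and Pros1. Mrc1 read 938 CPM in the GA and 574 CPM in the control cells of the low clusters, and 9.56 and 40.6 CPM in the high clusters.

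In the clusters low in Ly6c2 the ratios differed from those of the whole class. Here the members' median log2 ratio was 0.24 (0.06 over all genes). By interval, 6 of 10 were above 0, 3 below and 1 covered 0, with no share over all genes computed. Higher by 2-fold or more were 2 (Marco and Cd163), against 2.95% of all genes. Mrc1 was 0.71 log2 higher in GA (0.68 to 0.74), Gas6 0.47 (0.42 to 0.53), Pros1 0.31 (0.19 to 0.43), Stab1 0.17 (0.13 to 0.21) and Cd163 1.34 (1.13 to 1.55). Mertk, at 141 and 142 CPM, gave -0.02 (-0.09 to 0.06). Cd36 at -0.08 (-0.11 to -0.05) and Msr1 at -0.11 (-0.15 to -0.06) were slightly lower in GA. Over these clusters together Axl was lower by more, at -0.44 (-0.57 to -0.31). Taken singly, 11 of the clusters had at least 20 Axl UMIs, of which 4 were above 0, 3 below and 4 covered 0. Their median Axl log2 ratio was -0.06. Under 8 other filters or clusterings and without the 5 cells richest in each gene, each member in these clusters kept its sign, except Marco. Mrc1 ranged from 0.66 to 0.74, Cd163 from 1.28 to 1.45, Gas6 from 0.41 to 0.54 and Axl from -0.60 to -0.24. The low clusters were themselves present in different shares in the 2 libraries. Folr2 macrophage-like cells, the main holders of Cd163, were 97 of their 770 GA and 109 of their 1419 control cells. Within the Folr2 cells Cd163 was higher in GA by 0.76 log2. The part of these shares in the ratios was not tested.

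In the clusters high in Ly6c2, 9 members had at least 20 UMIs. Of these, 6 had intervals below 0 and 3 covered 0, and the median log2 ratio was -1.37 (0.01 over all genes). Past 2-fold and lower were 6 of 9, against 3.75% of all genes. These were not the same 6 as those with intervals below 0. Gas6, with 13 and 11 UMIs, was past 2-fold at -1.03, but its interval (-2.31 to 0.27) covered 0. Msr1 had an interval below 0 at -0.52 and was not past 2-fold. Cd36 read 9.04 and 74.6 CPM, Stab1 9.04 and 23.3 CPM and Axl 3.29 and 14.6 CPM. C1qa was lower by 2.78 log2 in the same cells and the proliferation gene Mki67 higher, at 457 and 304 CPM. Their part in the result was not tested. Without batch correction this median turned to 0.29, so the lower values in these clusters depended on how cells of the 2 libraries were joined.

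**Figure D2:**
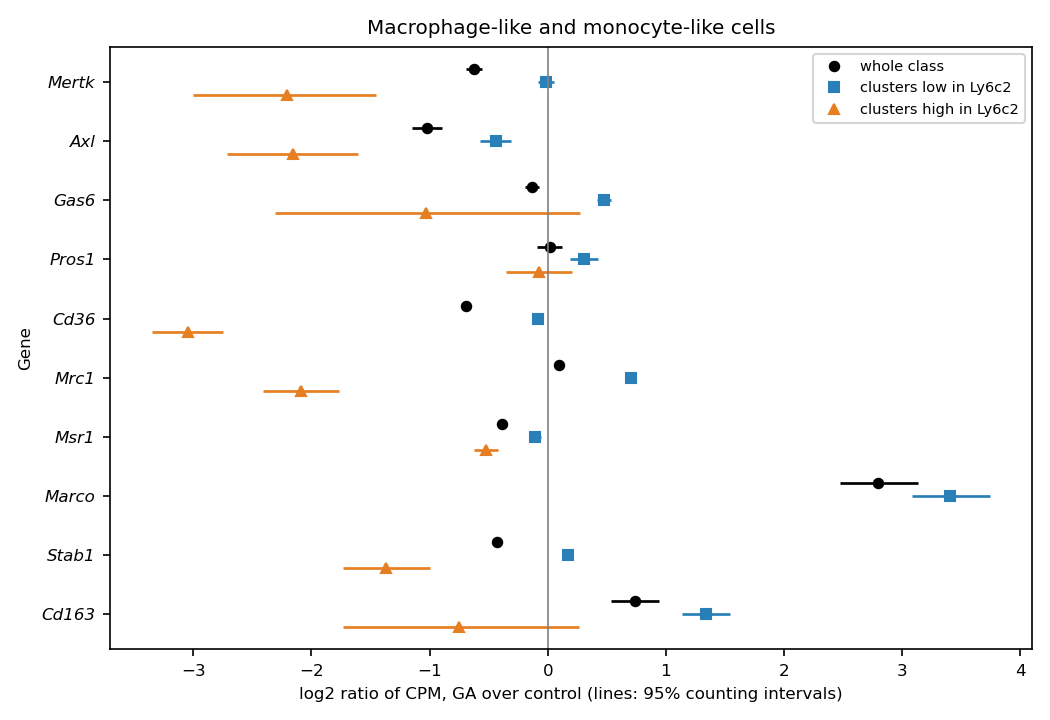
Log2 ratio of CPM, GA over control, for each member in the whole macrophage-like or monocyte-like class (circles), in its 13 clusters low in Ly6c2 (squares) and in its 5 clusters high in Ly6c2 (triangles), with lines for 95% counting intervals and members under 20 UMIs left out. Mertk sits at -0.62 in the whole class and at -0.02 in the low clusters, and Mrc1 at 0.09 and 0.71.

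Mertk (ENSMUSG00000014361, chr2:128698956-128802894 on GRCm38, plus strand) is a main receptor of tissue macrophages for apoptotic cells. In the whole class it read 80.2 CPM in GA and 124 CPM in control, a log2 ratio of -0.62 (-0.69 to -0.55). A cluster of 18 GA and 63 control cells led by Nav3, Serpine2 and Sall1 had the highest Mertk of the 16 clusters plotted, at 547 and 348 CPM, higher in GA by 0.65 log2 (0.43 to 0.87). Single GA cells of this cluster held 41, 38, 27, 25 and 17 of the 773 Mertk UMIs it had in both libraries. Its richest control cells held 28, 25, 22, 21 and 21, so the ratio rested in part on few GA cells. The Folr2 macrophage-like cells followed with 246 and 224 CPM, which did not differ beyond counting error. The C1q macrophage-like cells, 1 named cluster of 87 GA and 244 control cells, read 135 and 161 CPM. They were lower in GA by a log2 ratio of -0.26 (-0.47 to -0.06). The cluster led by Nav3 scored higher for the C1q macrophage markers (1.77 against 1.36) but was left unnamed. A cluster led by Gsta3, a glutathione transferase, and by Slc40a1 and Hmox1, genes of iron and haem handling, was higher, with 163 and 99.3 CPM. In the Ly6c2 monocyte-like cells Mertk was low, at 2 CPM (6 UMIs) in GA and 18.6 CPM (34 UMIs) in control. Of the 13 clusters with at least 20 Mertk UMIs, 3 were above 0, 5 below and 5 covered 0.

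Axl (ENSMUSG00000002602, chr7:25757273-25788705, minus strand) is the related receptor that inflammation induces. In the macrophage class it read 22.4 CPM in GA and 45.4 CPM in control, -1.02 (-1.15 to -0.89). Under 14 other processing settings this ratio ranged from -1.13 to -0.17. Among its clusters Axl was high in the MHC class II-high cells, which present antigen, at 155 and 188 CPM, and in the C1q macrophage-like cells, at 54.3 and 102 CPM (-0.91, -1.23 to -0.60). A cluster of 21 GA and 63 control cells led by Gal and Gpnmb held 2 Axl UMIs in GA and 161 in control, or 3.88 and 83.5 CPM. The main Arg1 macrophage-like cluster was low in both libraries, at 13.1 and 8.49 CPM, while the Arg1 cluster with Mmp12 and Inhba read 31 and 56.3 CPM. The cluster led by the interferon-induced genes Ifit1 and Ifit3 went the other way, with 66.9 and 49 CPM (0.45, 0.05 to 0.86). Of 15 clusters, 4 were above 0, 5 below and 6 covered 0.

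**Figure D3:**
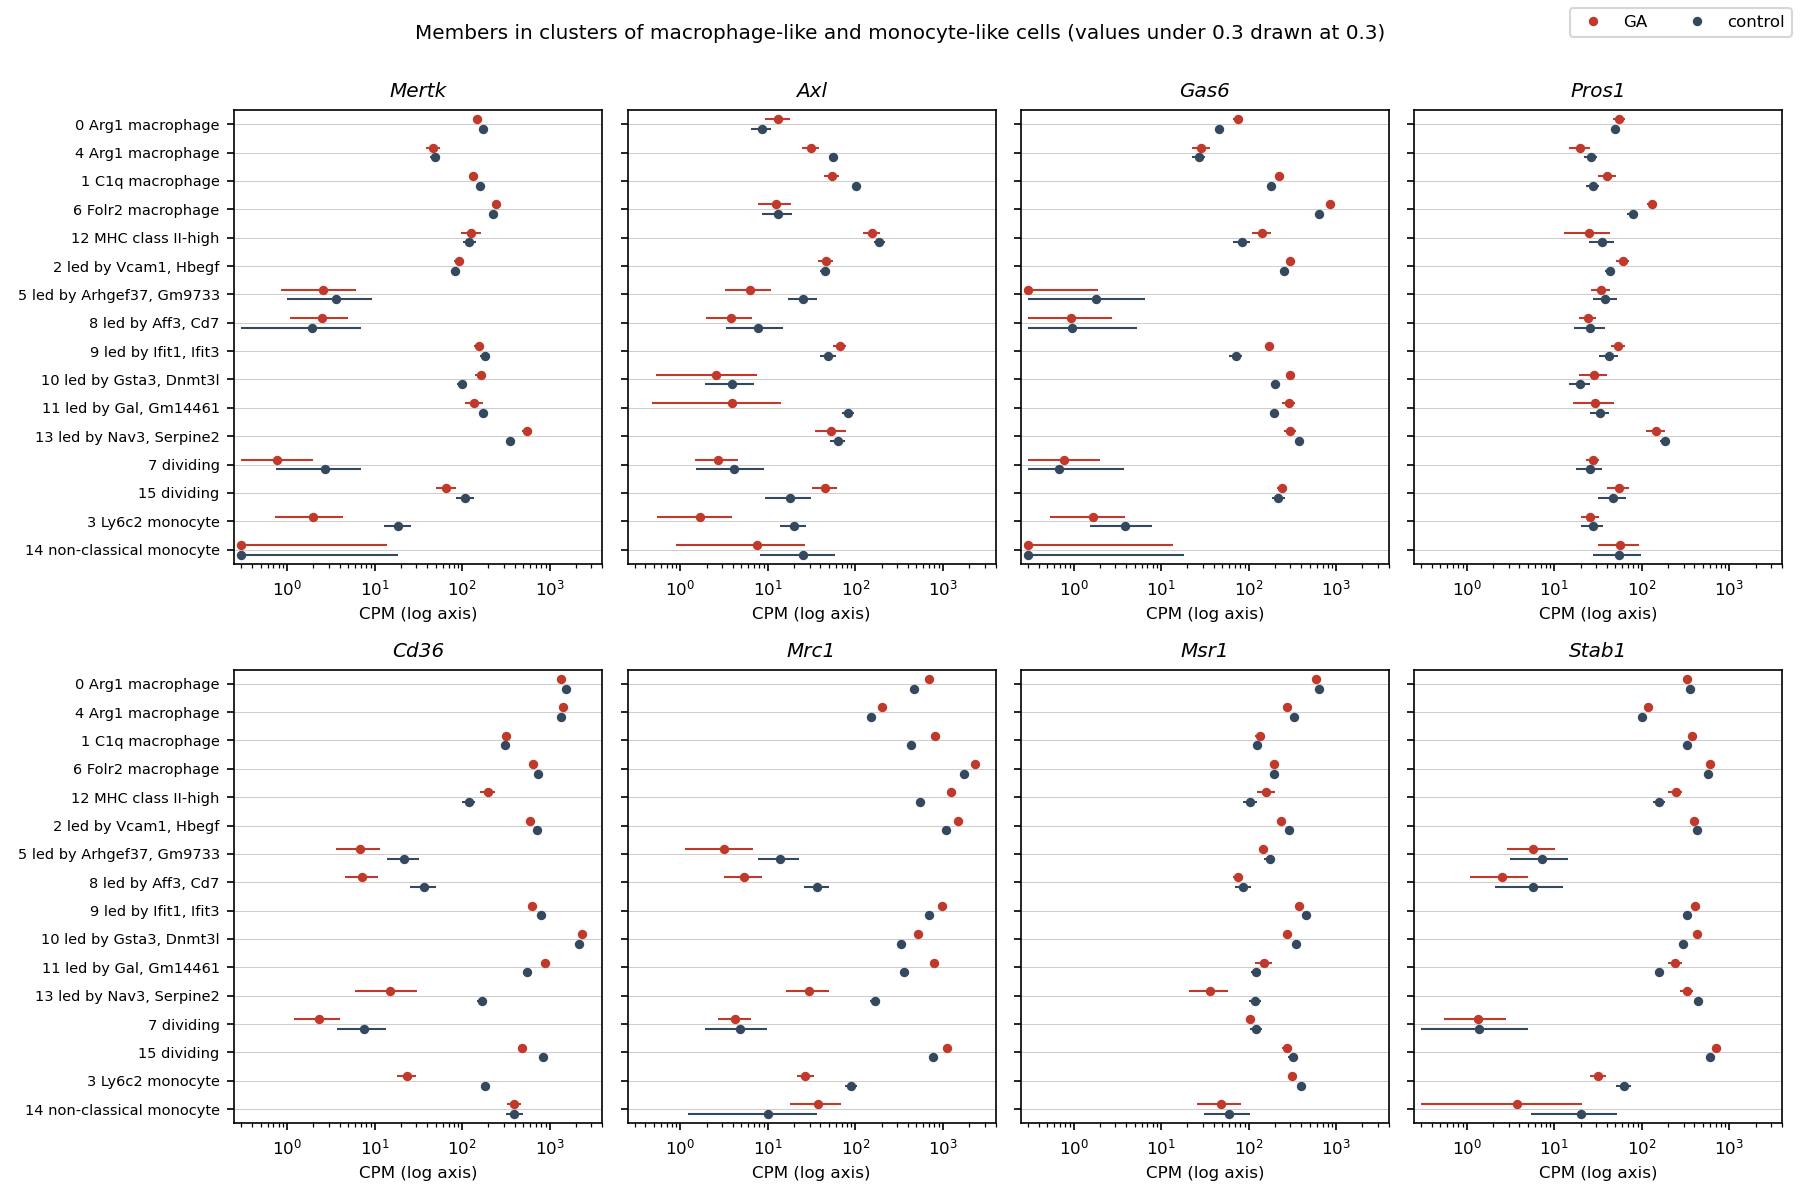
CPM (log axis) of 8 members in 16 clusters of macrophage-like and monocyte-like cells, GA in red and control in dark blue, with lines for exact 95% counting intervals and values under 0.3 drawn at 0.3. Mrc1 is higher in GA in the Folr2 cluster (2349 against 1750 CPM) and lower in the Ly6c2 monocyte cluster (27 against 89.7 CPM), while Pros1 lies close together in most clusters.

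Gas6 (ENSMUSG00000031451, chr8:13465374-13494490, minus strand), the ligand of both kinases, marked the Folr2 macrophage-like cells, a group named from Folr2, Lyve1, F13a1 and other genes of resident tissue macrophages. They held 856 CPM in GA and 631 CPM in control (0.44, 0.33 to 0.54). Over the whole class Gas6 read 137 and 150 CPM, -0.13 (-0.19 to -0.08). The cluster led by Ifit1 and Ifit3 held 172 and 71.1 CPM (1.28, 0.97 to 1.59), the MHC class II-high cells 142 and 83.6 CPM, the C1q cells 223 and 180 CPM and the main Arg1 cluster 75.9 and 46.5 CPM. Under other processing settings the log2 ratio of Gas6 ranged from 0.18 to 0.59 in the Folr2 cells, from -0.55 to 0.72 in the C1q cells, with the sign kept in 6 of 8, and from -0.61 to 1.13 in the Arg1 cells, with the sign kept in 8 of 9. Of 12 clusters, all of them low in Ly6c2, 8 were above 0, 1 below and 3 covered 0. The cluster below 0 was that led by Nav3 and Sall1, with 299 and 382 CPM.

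Pros1 (ENSMUSG00000022912, chr16:62854307-62929346, plus strand), which also limits blood clotting, varied less. It read 43.5 and 43 CPM in the macrophage class, 0.02 (-0.09 to 0.12), and 13 of its 17 clusters covered 0. The 4 others were higher in GA, among them the Folr2 cells, with 131 and 78.9 CPM (0.74, 0.45 to 1.03), and the C1q cells, with 40 and 27.5 CPM. The monocyte-like cells had Pros1 too, with 25.6 and 27.4 CPM in the Ly6c2 cluster. The cells of the cluster led by Nav3 and Sall1 read 144 and 182 CPM, which did not differ beyond counting error.

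Cd36 (ENSMUSG00000002944, chr5:17781690-17888801, minus strand), which imports fatty acids and oxidised lipoproteins, read 525 CPM in GA and 849 CPM in control over the class, -0.69 (-0.72 to -0.67). Its levels were high in the cluster led by Gsta3 and Slc40a1 (2317 and 2153 CPM) and in both Arg1 clusters (1345 and 1546 CPM in the first and 1415 and 1368 CPM in the other). The ratios there were small, with -0.20 in the first Arg1 cluster. The Ly6c2 monocyte-like cells read 23.3 and 185 CPM (-2.99, -3.38 to -2.61), and the cluster led by Nav3 and Sall1 read 14.9 and 168 CPM. Higher in GA were the cluster led by Gal and Gpnmb, with 897 and 552 CPM, and the MHC class II-high cells, with 196 and 118 CPM. The 5 richest of the MHC class II-high cells held 75 of the 95 Cd36 UMIs in GA and 103 of the 129 in control. In the Ly6c2 monocyte-like cells the 5 richest held 39 of the 70 in GA and 162 of the 338 in control. Of 16 clusters, 3 were above 0, 10 below and 3 covered 0.

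Mrc1 (ENSMUSG00000026712, chr2:14229392-14332057, plus strand), which binds mannosylated and collagen ligands, read 534 CPM in GA and 501 CPM in control over the class, 0.09 (0.06 to 0.12). Most of its clusters differed by more than that. The Folr2 cells read 2349 and 1750 CPM (0.42, 0.36 to 0.49), the C1q cells 821 and 436 CPM (0.91, 0.82 to 1.01), the MHC class II-high cells 1239 and 554 CPM (1.16) and the main Arg1 cluster 694 and 474 CPM. A cluster led by Vcam1, Hbegf and Il10 read 1510 and 1073 CPM. Under other processing settings the log2 ratio ranged from 0.20 to 1.22 in the C1q cells and from 0.28 to 1.58 in the MHC class II-high cells. Of the 12 low-Ly6c2 clusters with at least 20 UMIs of Mrc1, 10 were above 0, 1 covered 0 and 1 was below, that led by Nav3 and Sall1, at 29.7 and 167 CPM. Of the 4 high-Ly6c2 clusters, 3 were below 0 and 1 covered 0.

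Msr1 (ENSMUSG00000025044, chr8:39581685-39642673, minus strand), the class A scavenger receptor, was, like Pros1, also present in the monocyte-like cells. It read 312 CPM in GA and 398 CPM in control in the Ly6c2 monocyte-like cells (-0.35, -0.50 to -0.21), against 583 and 631 CPM in the main Arg1 cluster and 198 and 197 CPM in the Folr2 cells. Over the class it read 232 and 304 CPM, -0.39 (-0.43 to -0.35). Of 18 clusters, 2 were above 0, 7 below and 9 covered 0.

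Stab1 (ENSMUSG00000042286, chr14:31139013-31168641, minus strand) read 209 CPM in GA and 282 CPM in control over the class, -0.43 (-0.47 to -0.38). It was high in the dividing macrophage-like cells that were low in Ly6c2, at 702 and 603 CPM, and in the Folr2 cells, at 605 and 577 CPM, a difference within counting error. The MHC class II-high cells read 243 and 157 CPM (0.63, 0.28 to 0.98) and the Ly6c2 monocyte-like cells 31.6 and 61.8 CPM (-0.97, -1.38 to -0.56). Of 13 clusters, 7 were above 0, 3 below and 3 covered 0.

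Cd163 (ENSMUSG00000008845, chr6:124304656-124330527, plus strand) was rare, with 465 UMIs over 93 cells of the class in GA and 364 over 79 cells in control, or 15.1 and 9.07 CPM (0.74, 0.54 to 0.94). Its UMIs lay mainly in the Folr2 cells, with 157 and 93.2 CPM (0.76, 0.49 to 1.02, and from 0.080 to 1.06 under other processing settings), followed by the cluster led by Vcam1, with 26.2 and 13.3 CPM. The 5 richest cells of the class held 30.1% of its UMIs in GA and 30.5% in control. In the cluster led by Nav3 and Sall1 there were 33 UMIs in the GA library, all in a single cell, and 1 UMI in the control library.

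Marco (ENSMUSG00000026390, chr1:120474538-120505024, minus strand) gave the largest log2 ratio of the 10, 2.80 (2.47 to 3.13) from 15.9 CPM in GA and 2.29 CPM in control, and it rested on few cells. The GA library held 490 UMIs in 13 cells, of which a single cell of the cluster led by Vcam1 held 408, and the control library held 92 UMIs in 23 cells, the richest with 30. The 5 richest cells held 98.2% of the UMIs in GA and 69.6% in control. Without them the log2 ratio was -1.25. After thinning, Marco was found in 0.235% of GA and 0.225% of control cells, which does not differ beyond counting error.

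**Figure D4:**
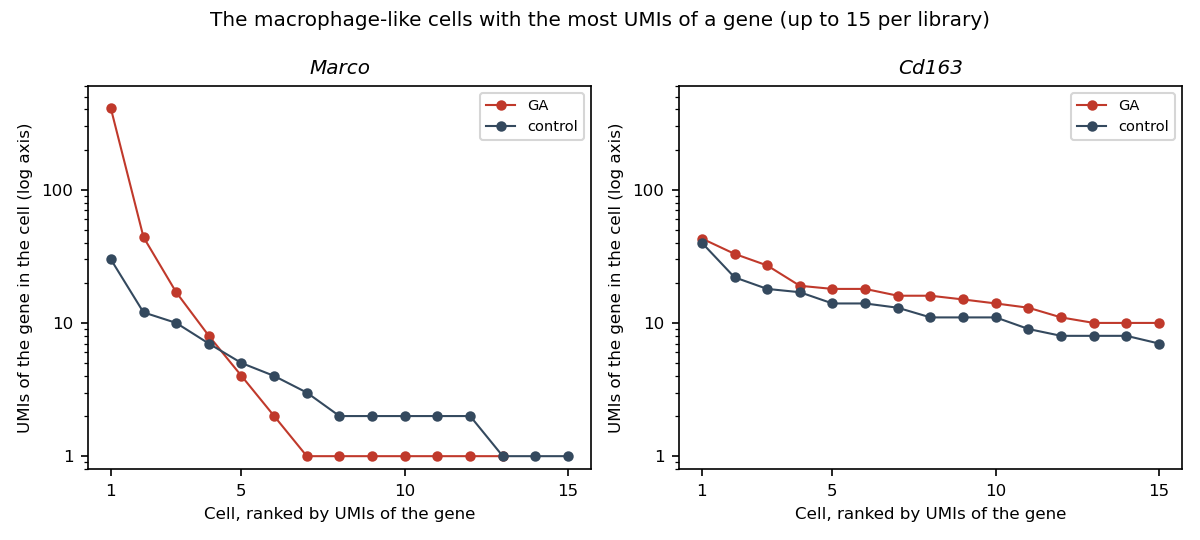
UMIs of Marco and of Cd163 (log axis) in the 15 macrophage-class cells of each library with the most of them, ranked from the left. The first GA cell holds 408 Marco UMIs and the next 44. The Cd163 curves start at 43 UMIs in GA and 40 in control, and GA is higher at each rank shown.

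A small cluster of 37 GA and 36 control cells carried markers of red cells and of macrophages together. Haemoglobin mRNA (Hba-a1) read 21569 and 21163 CPM and C1qa 2687 and 1908 CPM, and Timd4, Cd5l and Slc40a1, genes of macrophages that digest red cells, read 181 and 227, 1058 and 932, and 1543 and 1528 CPM. It was rich in both kinases and in Cd163. Mertk read 1009 and 961 CPM (0.07, -0.10 to 0.24), Axl 1069 and 773 CPM (0.47, 0.29 to 0.64), Mrc1 1462 and 1231 CPM and Cd163 395 and 238 CPM (0.73, 0.43 to 1.04). With under 0.5% of the cells of each library, it held 10.9% of all Mertk UMIs and 26.9% of those of Cd163. The fibroblast gene Col1a1 read 156 CPM in its GA and 5313 CPM in its control cells, so other RNA was present too, and its part in the result was not tested. Whether single barcodes held more than 1 cell was not tested either.

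In mesenchymal-like cells, 791 in GA and 1695 in control, Axl was higher in GA, at 201 CPM against 126 CPM (0.67, 0.63 to 0.71), the opposite of the macrophage class. The difference between the classes was not tested. Gas6 read 127 and 145 CPM (-0.19) and Pros1 85.5 and 83.3 CPM (0.04). In the mesenchymal lineage as a whole, osteoblast-like cells included, the median log2 ratio of the 9 members with at least 20 UMIs was 0.00, against -0.02 for all genes.

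Among the clusters of the mesenchymal lineage, Axl was high in the Cd34 mesenchymal-like cells, a group named from Cd34, Pi16, Dpp4 and other genes of undifferentiated fibroblasts. The larger of their clusters read 343 CPM in GA and 229 CPM in control (0.58, 0.49 to 0.68) and the other 292 and 182 CPM (0.68, 0.56 to 0.80). The osteoblast-like cluster was the lowest of the 11 plotted, at 4.73 and 7.94 CPM. Of 12 clusters with at least 20 Axl UMIs, 8 were above 0, 0 below and 4 covered 0.

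Gas6 differed in both directions. The Cd34 mesenchymal-like cells read 125 CPM in GA and 233 CPM in control (-0.90), the Eln fibroblastic-like cells 341 and 167 CPM (1.03, 0.91 to 1.15) and the Scx progenitor-like cells, named from tendon genes such as Scx and Tnmd, 338 and 247 CPM (0.45, 0.38 to 0.53). Under 8 other filters or clusterings the Cd34 value stayed between -1.30 and -0.87 and that of Axl in the same cells between 0.53 and 0.73. The Eln fibroblastic-like values rested on 54 GA and 375 control cells and turned to -0.40 with a mitochondrial limit of 10%. The smaller Scx progenitor-like cluster held the most Gas6 of the 11 plotted, at 560 and 556 CPM, and did not differ beyond counting error. Of 12 clusters, 6 were above 0, 5 below and 1 covered 0. Pros1 stayed between 39.3 and 125 CPM in both libraries in the 11 plotted clusters.

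**Figure D5:**
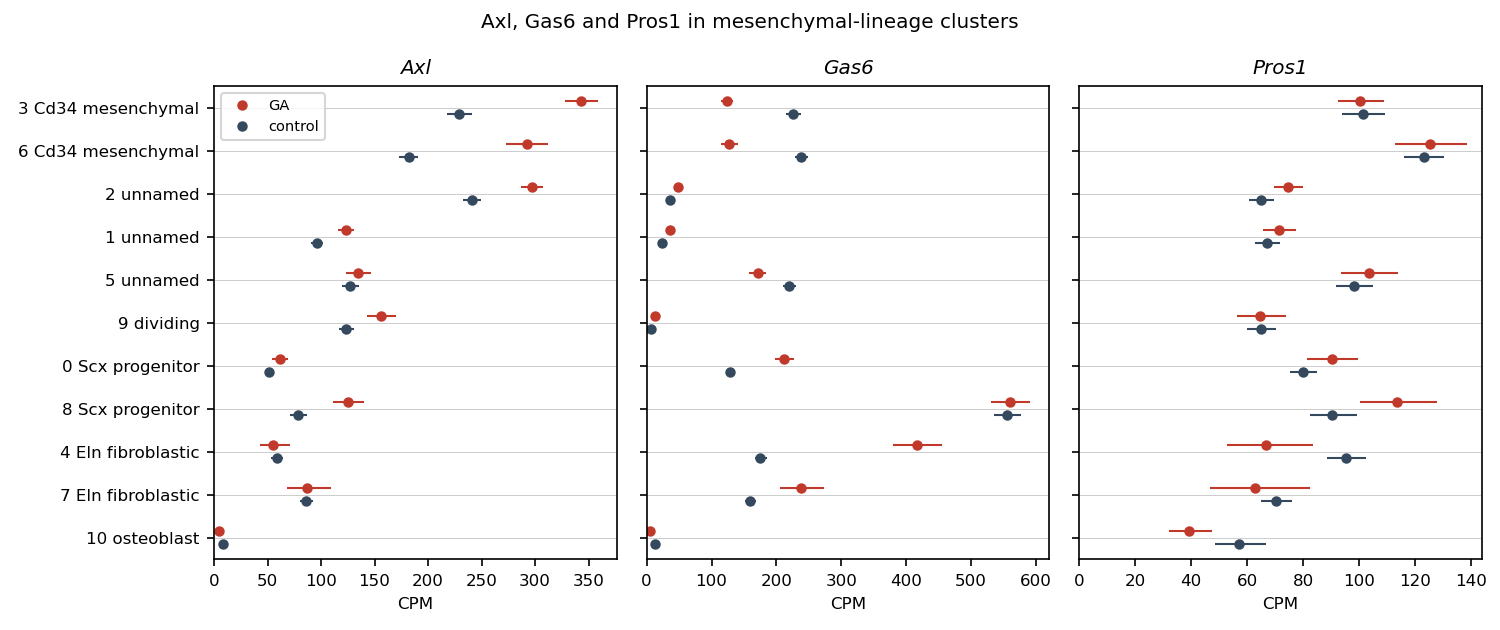
CPM of Axl, Gas6 and Pros1 in 11 clusters of the mesenchymal lineage, GA in red and control in dark blue, with lines for exact 95% counting intervals. Axl is higher in GA in both Cd34 clusters, Gas6 is lower there and higher in the first Eln fibroblastic cluster (416 against 175 CPM), and Pros1 overlaps in most rows.

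Osteoblast-like cells, 76 in GA and 51 in control, had Mertk at 42 and 92.1 CPM (-1.13, -1.46 to -0.81), above the 10.6 and 10.7 CPM of the mesenchymal-like cells, while Axl and Gas6 were low in them. The 5 richest of these cells held 53 of the 131 Mertk UMIs in GA and 118 of the 204 in control, so much of each level rested on few cells. Endothelial-like cells had Stab1, known from the lining of sinusoids, at 178 and 140 CPM and Pros1 at 113 and 79.4 CPM. Megakaryocyte-like cells had Pros1 at 82.4 and 119 CPM and erythroid-like cells Cd36 at 141 and 111 CPM. Osteoclast-like cells, which share a precursor with macrophages, had Axl at 36.9 and 38 CPM and Cd36 at 36.9 and 10 CPM. In the neutrophil-like cells each of the 10 members stayed under 6 CPM in both libraries.

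The dendritic-like cells (159 in GA and 304 in control) had higher levels of several members in GA. The median log2 ratio of the 9 members with at least 20 UMIs was 0.83 (0.01 over all genes), and 4 of 9 were higher by 2-fold or more, against 2.79% of all genes. Stab1 read 51.8 and 18.4 CPM, Mertk 26.2 and 11.7 CPM, Cd36 159 and 71.1 CPM and Mrc1 349 and 244 CPM. Axl read 114 and 92.9 CPM (0.30). In the same cells the macrophage genes C1qa (836 and 309 CPM) and Adgre1 (160 and 85.9 CPM) were higher in GA and the dendritic genes Cd209a (181 and 290 CPM) and Flt3 (87 and 124 CPM) lower. Their part in the result was not tested.

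The pericyte-like cells were shallow, with medians of 2027 UMIs in GA and 4016 in control. They read 183 and 46 CPM of Mertk, 368 and 116 CPM of Gas6 and 238 and 37.5 CPM of Mrc1. Of the 9 members with at least 20 UMIs, 6 were higher by 2-fold or more, against 7.94% of all genes in this class. C1qa (1029 and 345 CPM) and Col1a1 (14675 and 4576 CPM) were higher in the same GA cells and the pericyte gene Rgs5 (1695 and 3720 CPM) lower. Their part in the result was not tested.

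The other genes of the pathway, listed by role, showed mixed directions in the macrophage class. Their counts above or below 0 go by counting intervals, and the shares over all genes of the class were not computed. At these depths small ratios are counted too, such as Adam10 at -0.06 (-0.126 to -0.004). Of 14 measured phosphatidylserine receptors and bridges beside the members, 1 had an interval above 0, 9 below and 4 covering 0, with a median log2 ratio of -0.49. Mfge8, a bridge to integrins, read 16.3 and 49.9 CPM (-1.61) and its receptor subunit Itgav 210 and 411 CPM (-0.97). Itgb3 gave 0.16 and Cd300lf, a lipid receptor, 0.30. Of 14 other scavenger receptors and lectins, 3 were above 0, 7 below and 4 covered 0, from Cxcl16 (152 and 250 CPM) and Olr1 (89.3 and 146 CPM) to Scarb1 (47.6 and 32.9 CPM) and the lectin Clec10a (38 and 25.5 CPM).

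The whole class also differed in its share of cells in clusters high in Ly6c2, 40.0% in GA and 20.4% in control. The part of these shares in the values of the lists was not tested. In the list of lipid efflux and its regulators, 2 of 14 had an interval above 0 and 11 below, with a median of -0.36, while in the clusters low in Ly6c2 6 were above 0 and 6 below. The lipid carrier Fabp5 read 731 and 1418 CPM and the cholesterol exporter Abca1 634 and 1043 CPM, while Lpl, a lipase, read 515 and 421 CPM. Of 9 genes of haemoglobin and iron handling, 8 were below 0 and 1 covered 0 in the whole class. In the clusters low in Ly6c2, 3 were above 0, 4 below and 2 covered 0. The shares of all genes with such intervals were not computed. Hmox1, which degrades haem, read 921 and 1542 CPM and the ferritin chain Fth1 12138 and 19864.5 CPM, whereas the iron exporter Slc40a1 gave -0.27 and Blvra -0.07. The engulfment machinery was balanced, with 4 of 12 above 0, 4 below and 4 covering 0, from Rab7 (-0.22) and Elmo1 (-0.10) to Elmo2 (0.29) and Abca7 (39.2 and 22.2 CPM).

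Of 8 signals that invite or prevent uptake, 4 were above 0, 3 below and 1 covered 0. The restraining receptors Sirpa and Cd200r1 gave -0.20 and -0.29, and calreticulin (Calr) and Cd24a gave 0.31 and 0.55. Of 5 genes that act on the shedding of Mertk and Cd163 from the surface, among them the protease inhibitor Timp3, 4 were below 0 and 1 covered 0, with Rhbdf2 at -0.33, Adam17 at -0.18 and Adam10 at -0.06. Of 8 macrophage transcription factors, 1 was above 0, 4 below and 3 covered 0. Nfe2l2 gave -0.18, and PU.1 (Spi1) and Maf gave -0.01 and 0.06.

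The genes whose pattern was most like a member's were sought over 32 profiles, 16 classes in each of 2 libraries, by Pearson correlation of log2(CPM + 1). The profiles share their library and differ in depth, so r is a description. Mrc1 was followed by Nr1h3 (0.94), Adgre4 (0.94) and C1qa (0.93), Mertk by Sdc3 (0.94), Snx24 (0.89) and Hmox1 (0.89), and Cd163 by Vsig4 (0.91), Spic (0.89) and Siglec1 (0.88). Axl was followed by Epb41l1 (0.86), Lrp1 (0.85) and Sulf2 (0.85), Gas6 by Igf1 (0.91), Cxcl1 (0.91) and Gm4951 (0.90), and Pros1 by Tmem159 (0.90) and Pkd2 (0.88). Msr1 was followed by Ms4a6d (0.93), Ms4a7 (0.92) and 4930430E12Rik (0.92), Stab1 by Ltc4s (0.88), Tmem51 (0.86) and Sult1a1 (0.86), Cd36 by 4930589L23Rik (0.87), Slc7a7 (0.83) and Rab3il1 (0.82), and Marco by Ms4a14 (0.86), Apoc4 (0.82) and AU022793 (0.81).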

How the data were processed

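Gene expression of single cells was read out in the GA and the control library, each pooled from 5 mice. The authors deposited, per library, a matrix of raw UMI counts per gene and barcode, made with Cell Ranger 7.0.1 by the file headers. No normalization was seen in the values, and the sources differ on the droplet kit version.

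Barcodes with 500 to 140000 UMIs, 200 to 9500 genes and up to 15% mitochondrial UMIs were kept. Scrublet in scanpy 1.11.5 called 0 GA and 32 control barcodes (0.367%) as doublets, so barcodes were instead dropped from the top of its score, at a share that grows with the number of barcodes, which took out 660 GA and 538 control cells. Clustering used 2000 variable genes without the listed genes, Pearson residuals (theta 100), 50 principal components, Harmony written in NumPy 2.4.6 (theta 2, lambda 1, sigma 0.1), a graph of 15 neighbours and leidenalg 0.10.2 at resolution 1. The macrophage and mesenchymal classes were clustered again. A cluster took the class with the highest mean marker fold if at least 3 markers reached 10% of its cells and a fold of 2. If that class failed, the next within 0.5 log2 could be taken. In this way a cluster of 58 GA and 364 control cells scoring highest for keratinocyte was named mesenchymal. Rules on leading genes and depth left other clusters unnamed. Among them was a macrophage-class cluster of 122 GA and 97 control cells whose highest score was for Ly6c2 monocyte. The clusters led by Nav3, by Vcam1 and by Gal had their highest score for C1q macrophage and were left unnamed too. The C1q cells of the text are therefore only the cluster that took that name. These naming thresholds were set after seeing the data, and names are rebuilt rather than the authors' own.

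Counts were summed per group of cells and library. Ratios carry exact conditional binomial 95% intervals, and shares of cells come from thinning each cell to 2000 UMIs, leaving out 7 GA and 5 control macrophage-class cells below that depth. The interval function was tested on simulated data only for its arithmetic. The counts were drawn with the counting error that the interval assumes. UMIs gathered in few cells and differences between mice were left out, so the intervals are not tested for these. Members and lists were chosen with earlier results of these data known. Beside the members, the text names the 2 highest and 2 lowest ratios of each list in the macrophage class among genes with at least 200 UMIs, the 3 genes most like each member, marker genes, and leading genes of clusters. Of the genes this rule names, 2 are not reported here. Genes of the clusters in which members differed were chosen after their values were seen. Positions come from GENCODE vM21 (GRCm38) and promoters from RefSeq. Alternatives changed the filters, the doublet removal, the clustering, the naming and the scale of the ratio. Free RNA was estimated from 9 neutrophil genes at 1.99% of UMIs in GA and 1.01% in control.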

Additional observations from a re-analysis of the deposited data

Results flagged for a closer look

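Several members had log2 ratios of opposite sign in different groups of cells, each with a counting interval that left out 0. With 1 library per group none of these differences was tested. Across classes, Axl was 0.70 in pericyte-like and -1.02 in macrophage-like or monocyte-like cells, Cd36 was 1.16 in dendritic-like and -0.76 in mesenchymal-like cells, and Stab1 was 1.49 in dendritic-like and -0.77 in neutrophil-like cells. The levels behind the mesenchymal value of Cd36 (1.11 and 1.88 CPM) and the neutrophil value of Stab1 (3.32 and 5.68 CPM) were low. Marker genes differed too. In GA and control, Rgs5 read 1695 and 3720 CPM in pericyte-like cells and Cd209a 181 and 290 CPM in dendritic-like cells. C1qa was higher in the GA cells of both these classes. The part of such differences in the signs was not tested.

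Within the macrophage class, the MHC class II-high cells and the Ly6c2 monocyte-like cells differed in sign for Cd36 (0.72 and -2.99), Mrc1 (1.16 and -1.73) and Stab1 (0.63 and -0.97). Under other processing settings Cd36 ranged from 0.087 to 1.64 and from -3.45 to -1.37, Mrc1 from 0.28 to 1.58 and from -3.17 to -1.39, and Stab1 from 0.013 to 0.91 and from -1.58 to 0.90, so the sign of Stab1 in the Ly6c2 cells, kept in 7 of 9, depended on the processing. These are clusters of 27 GA and 55 control and of 148 GA and 138 control cells. Several of the levels rested on few cells. For Cd36, 5 MHC class II-high cells held 75 of the 95 UMIs in GA and 103 of the 129 in control. Among the Ly6c2 monocyte-like cells, 5 held 39 of the 70 Cd36 UMIs in GA and 162 of the 338 in control. For Mrc1, 5 Ly6c2 monocyte-like cells held 65 of the 81 UMIs in GA and 102 of the 164 in control. In the MHC class II-high cells, 5 cells held 296 of the 601 Mrc1 UMIs in GA and 215 of the 603 in control. For Stab1, 5 MHC class II-high cells held 65 of the 118 UMIs in GA and 69 of the 171 in control. In the mesenchymal lineage, Gas6 was 1.25 in the first Eln fibroblastic-like cluster (36 GA and 204 control cells). It was -0.90 in the smaller Cd34 mesenchymal-like cluster (60 GA and 165 control cells). Over all Eln fibroblastic-like cells, the 5 richest of 54 GA cells held 205 of the 670 Gas6 UMIs. Under other processing settings Gas6 ranged from -0.40 to 1.02 in the Eln cells and from -1.30 to -0.87 in the Cd34 cells. The sign in the Eln cells thus depended on the processing.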

How the results depend on the processing

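No paired analysis was possible because each condition has 1 library, and for the same reason no replicate could be left out. In the macrophage class the members' median of -0.26 ranged from -0.44 to 0.082 over 14 alternatives, with the same sign in 12. It was 0.082 without batch correction, 0.012 with listed genes allowed into the clustering, -0.073 at resolution 2, -0.11 with cells named by marker score, -0.11 by the mean of per-cell CPM, -0.37 relative to the median of all genes and -0.44 without the 5 richest cells. The count past 2-fold went from 2 to 1, with Axl no longer past it, without doublet removal, with at least 2000 UMIs, at resolution 2, with log1p scaling and by per-cell means. Mertk, Axl, Cd36, Msr1, Stab1 and Cd163 kept their sign in 14 of 14 alternatives, but the size of the Axl ratio ranged from -1.13 to -0.17. Over all cells the median of -0.54 became -0.46 relative to all genes, -0.79 by per-cell means and -0.63 without the 5 richest cells.

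In the clusters low in Ly6c2, a split added after seeing the data, the median of 0.24 was 0.037 without the 5 richest cells, where Marco turned to -0.64, and stayed between 0.19 and 0.26 otherwise. In the clusters high in Ly6c2 the median of -1.37 was -0.99 without the 5 richest cells, -0.50 at resolution 2 and -0.96 with log1p scaling. Without batch correction it turned to 0.29, with Mertk at 0.63, Gas6 at 2.73, Cd36 at 0.19, Mrc1 at 1.33 and Stab1 at 1.32. Gas6 also turned there without the 5 richest cells (0.29) and at resolution 2 (0.75), and Stab1 with log1p scaling (0.064).

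Marco turned in the whole class without the 5 richest cells (-1.25), and in Folr2 macrophage-like cells without doublet removal (-0.48), with a mitochondrial limit of 10% (-0.38), without batch correction (-1.27) and with listed genes allowed (-4.65). Cd36 in dividing cells turned to 0.14 without batch correction, and Gas6 in Eln fibroblastic-like cells to -0.40 with a mitochondrial limit of 10%. Stab1 in Ly6c2 monocyte-like cells kept its sign in 7 of 9 (up to 0.90), Gas6 in C1q cells in 6 of 8 (down to -0.55), Axl in Arg1 cells in 2 of 9 (up to 0.88) and Gas6 in the whole class in 10 of 14 (up to 0.26). The cause of these turns was not tested. Some values rest on few UMIs or few cells. In the clusters high in Ly6c2, both libraries together held 24 UMIs of Gas6, 39 of Cd163 and 67 of Mertk, but 3208 of Msr1. In the whole class, Cd163 was found in 93 GA and 79 control cells, and a single GA cell held 408 of the 490 Marco UMIs.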

Other observations

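Co-occurrence of members in single macrophage-class cells was counted after thinning to 2000 UMIs. Gas6 was found in 42.5% of the GA and 35.5% of the control cells that had a UMI of Mrc1, and in 4.03% and 9.35% of those that had none. Mertk was found in 32.1% and 28.2% of the cells with a UMI of Gas6, and in 9.13% and 16.96% of those without, so cells with the receptor and cells with its ligand overlapped in both libraries. Mrc1 in turn was found in 61.9% of GA and 46.8% of control cells with a UMI of Cd36, and in 24.6% and 33.9% of those without. Cd163 was found in 4.56% and 3.25% of cells with a UMI of Mrc1, and in 0.126% and 0.187% of those without. The count covered the whole class, in which 40.0% of GA and 20.4% of control cells lay in clusters high in Ly6c2. There Mertk read 1.72 and 7.95 CPM and Gas6 0.971 and 1.99 CPM in GA and control. The part of this mixture in the overlaps was not tested. The shares of cells with a UMI describe 2 libraries and were not tested.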
